A study of Bos taurus with 10 samples.

Results

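Solute carriers are the membrane proteins, named SLC and a family number, that move sugars, acids, amino acids, ions, metals and vitamins across the plasma membrane and the membranes of organelles. The 200 genes described here are all genes of the deposited table whose symbol starts with SLC and a digit, apart from 45 of the mitochondrial SLC25 and fatty acid SLC27 families, and the table lists 12674 genes in all. They belong to 46 numbered families and were sorted by family number into substrate classes, apart from 4 that are not carriers by their symbol (SLC2A4RG, SLC7A6OS, SLC9A3R1 and SLC9A3R2). RNA was sequenced from intramuscular fat, which lies between muscle fibres and forms marbling, and from subcutaneous fat, both taken from the same 5 adult female Angus-cross cattle with no treatment. Each depot gave 5 libraries, numbered 1 to 5, and a shared number was taken as the same animal.

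A fat cell takes up glucose and, in ruminants above all, acetate and other short acids as carbon for fat, and passes lactate back to the blood through proton-coupled carriers. Amino acid carriers of the SLC7 family work as pairs with a heavy chain of the SLC3 family, and acid-base carriers of the SLC4 and SLC9 families hold the pH of the cell. Zinc is brought into the cytosol by SLC39 proteins and taken out of it by SLC30 proteins.

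Levels are CPM, the counts of a gene scaled to a common library size. Counts over the listed genes summed to between 9392739 and 14836808 per intramuscular library and between 13776094 and 17685678 per subcutaneous library, and the 200 genes took between 0.593% and 0.725% of them. The fat was a mixed tissue. The mature adipocyte markers (16 of 20 with values) took 0.893, 1.90, 1.94, 2.61 and 2.77% of counts in intramuscular replicates 1 to 5 and between 2.69% and 3.54% in subcutaneous libraries. For striated muscle markers the intramuscular shares were 0.355, 0.0930, 0.184, 0.0520 and 0.0619% and the subcutaneous ones lay between 0.00201% and 0.00579%. The muscle share rests on 14 of 85 markers, 13 of them higher and 0 lower in intramuscular fat. The other 71, which include the defining genes of the fibre such as ACTA1, CKM and TTN, have no values in the counts used here. The muscle share therefore leaves them out. Among all genes tested 6.75% were higher and 5.49% lower, which is the background for the marker counts here and below. Of pericyte and vascular smooth muscle markers 3 of 7 were higher and 0 lower, among them RGS5 at 426 ± 147 against 52.1 ± 13.99 CPM. The markers not called went both ways. NOTCH3 had a positive log2 fold change (0.61), and PDGFRB (-0.55), MCAM (-0.26) and KCNJ8 (-0.14) had negative ones. The summed share of this marker list lay between 0.209% and 0.304% in intramuscular and between 0.144% and 0.249% in subcutaneous libraries. Of fibroblast markers 0 of 11 were higher and 4 lower, with shares between 1.07% and 1.19% and between 0.822% and 1.91%. Of skin epithelium markers 2 of 5 tested were higher and 1 lower, and of erythrocyte markers 0 of 2 passed the test. The part of these cells in the results was not tested. Intramuscular replicates 1 and 3 stood apart by muscle transcripts, and replicate 1 also by its low adipocyte share. In such bulk RNA, fewer cells of a type and less RNA per cell cannot be told apart.

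Of the 200 carrier genes, 194 had enough counts to be tested. The main edgeR fit did not pair the depots by animal. At its adjusted p of 0.05 intramuscular fat had the higher level for 14 and the lower level for 10. Of these, 13 higher and 5 lower genes passed a 2-fold difference. The share of all genes past that limit is not given here, so this count is not read as a trait of the carriers. These 24 are 12.4% of the genes tested, beside 12.2% of all 12521 genes tested, so the share called is near the background. By direction, 7.22% of the carriers were higher and 5.15% lower, beside 6.75% and 5.49% of all genes. The median log2 fold change was -0.007 for the carriers and -0.038 for all genes tested. The depots did not overlap for 24 of the 194 genes, or 12.4% beside a background of 12.9%, and 19 of these 24 were called. Intramuscular fat was the higher depot for 15 of them (7.85% of all genes tested) and the lower for 9 (5.04%). Log2 fold changes are intramuscular over subcutaneous throughout.

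**Figure D1:**
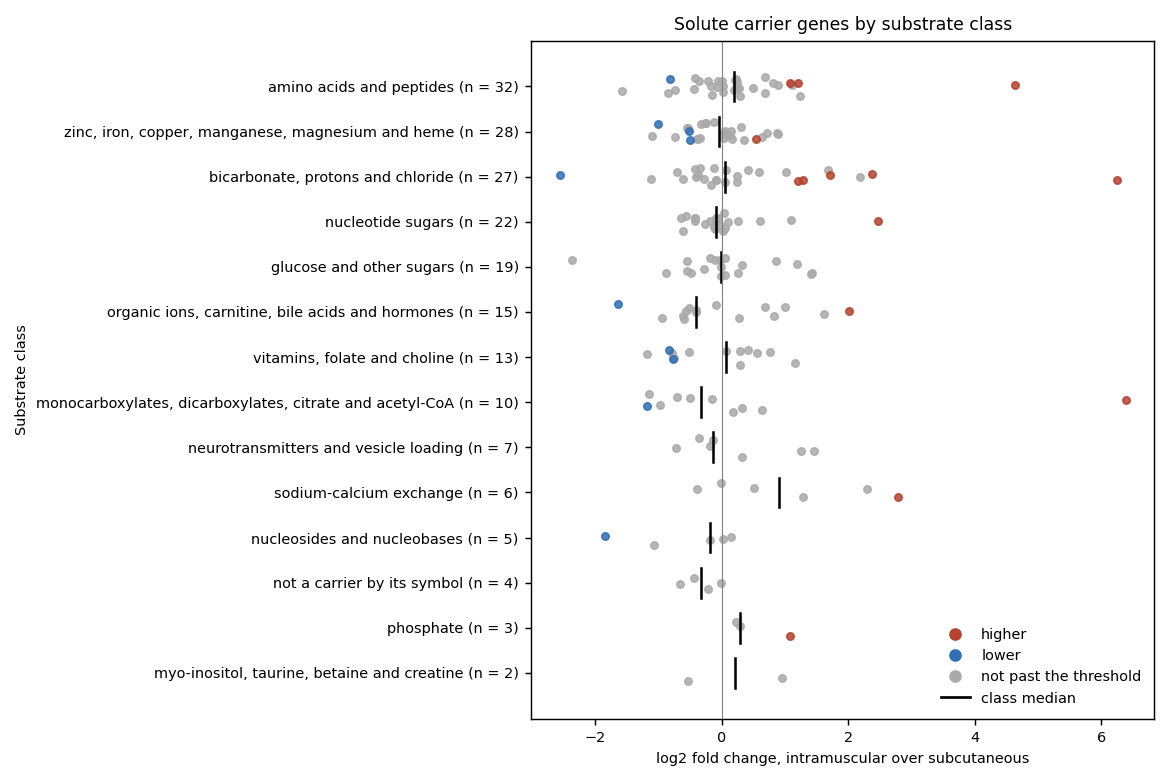
Log2 fold change (x axis) of each tested gene in the substrate classes with at least 2 tested genes (y axis); coloured points passed an edgeR adjusted p of 0.05 and bars mark class medians. Class medians lie between -0.41 and 0.90, the latter for sodium-calcium exchange, and SLC16A6 (6.39), SLC9A2 (6.25) and SLC6A17 (4.64) lie far to the right.

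**Figure D2:**
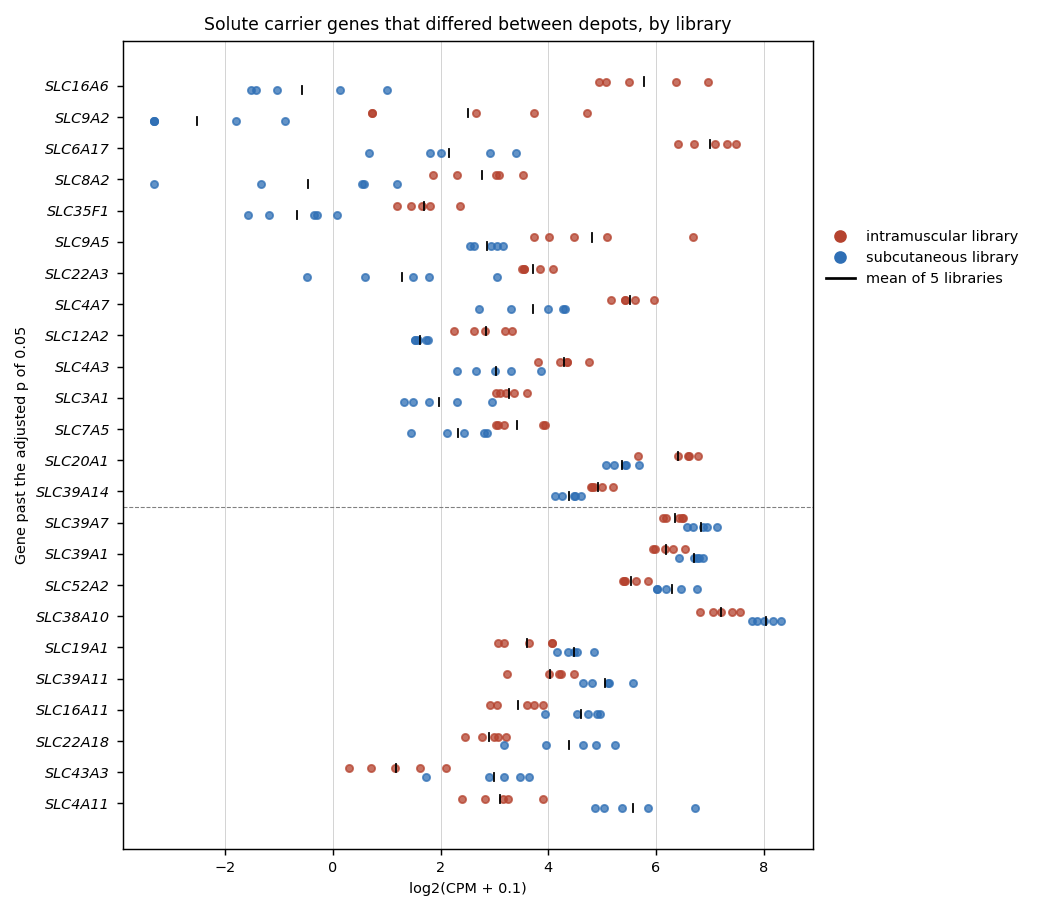
Level in each library, as log2(CPM + 0.1), of the 24 genes past the threshold, sorted by fold change; bars mark means of the 5 log2 values and the dashed line parts the 14 higher from the 10 lower genes. The depots are apart for 19 of the 24 genes and touch or overlap for SLC20A1, SLC4A3, SLC22A18, SLC43A3 and SLC39A1.

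No difference in a glucose carrier passed the test. Of the 19 genes of the sugar class 0 were called, beside 12.2% of all genes tested. The class median log2 fold change was -0.01. SLC2A4, the insulin-responsive glucose carrier of fat and muscle (ENSBTAG00000009190, chromosome 19, 26983928 to 26990339), measured 123, 63.7, 70.2, 94.8 and 137 CPM in intramuscular replicates 1 to 5 and 120, 64.5, 61.2, 31.1 and 116 CPM in subcutaneous replicates 1 to 5. Libraries 1 and 5 were the highest in both depots, the depots overlapped, and the log2 fold change was 0.32 ± 0.34 (± SE, edgeR adjusted p = 0.555). SLC2A1, the basal glucose carrier of most cells, had means of 34.4 ± 9.81 CPM in intramuscular and 48.0 ± 26.1 CPM in subcutaneous fat (mean ± SD, n = 5; adjusted p = 0.417).

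SLC2A3, a high-affinity glucose carrier also found on leukocytes and neurons, spread widely between animals. It measured 29.1, 336, 183, 228 and 558 CPM in intramuscular replicates 1 to 5 and 216, 89.6, 67.3, 41.1 and 170 CPM in subcutaneous ones. Intramuscular replicate 1 lay below every subcutaneous library while the other 4 pairs had the higher value in intramuscular fat. Its log2 fold change of 1.19 ± 0.60 did not pass the test (edgeR adjusted p = 0.197). Per kilobase of gene, SLC2A3 ranked 2 of the 200 genes in intramuscular fat (65.6 ± 48.3 CPM per kilobase) and 23 in subcutaneous fat (28.7). The intracellular carrier SLC2A8, the insulin-responsive SLC2A12 and SLC37A4, which moves glucose 6-phosphate into the endoplasmic reticulum, had log2 fold changes of -0.55, 1.43 and 0.26 (edgeR adjusted p between 0.149 and 0.538).

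Among carriers of lactate, pyruvate and related acids, SLC16A6 rose steeply and SLC16A11 fell in intramuscular fat. Of the 10 tested genes for monocarboxylates, dicarboxylates, citrate and acetyl-CoA, 1 was higher and 1 lower, beside 6.75% and 5.49% of all genes tested. The class median log2 fold change was -0.33. SLC16A6, a monocarboxylate carrier linked to ketone body export in liver (ENSBTAG00000003074, chromosome 19, 61867803 to 61877805), measured 126, 33.4, 30.6, 45.4 and 83.3 CPM in intramuscular replicates 1 to 5 and 0.387, 1.91, 0.248, 0.999 and 0.272 CPM in subcutaneous ones. Every intramuscular library lay far above the highest subcutaneous one, which was replicate 2. The log2 fold change was 6.39 ± 0.62 (edgeR adjusted p = 6.98e-05), an 83.5-fold difference of means. Without subcutaneous replicate 2 the subcutaneous mean fell from 0.762 to 0.477 CPM. ARSG, a sulfatase gene on the opposite strand that overlaps it, measured 25.9 ± 4.65 against 25.8 ± 4.78 CPM, and the strand setting of the counting is not given in the sources used here. The intramuscular libraries with the smallest muscle shares, replicates 4 (0.0520%) and 5 (0.0619%), had 45.4 and 83.3 CPM. Both shares lay above those of all subcutaneous libraries (at most 0.00579%). The part of muscle transcripts in the rise of SLC16A6 was not tested.

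SLC16A11, a member of the same family associated with type 2 diabetes in people, fell (ENSBTAG00000020852, chromosome 19, 26825722 to 26827663). It measured 13.2, 12.04, 7.45, 8.13 and 14.8 CPM in intramuscular replicates 1 to 5 and 23.0, 26.5, 29.8, 15.3 and 31.0 CPM in subcutaneous ones. All intramuscular libraries lay below all subcutaneous libraries, by a narrow gap at subcutaneous replicate 4, and the log2 fold change was -1.18 ± 0.26 (edgeR adjusted p = 0.0122). SLC16A7, the high-affinity pyruvate and lactate carrier, measured 46.7, 131, 130, 267 and 187 CPM in intramuscular replicates 1 to 5 and 187, 282, 351, 516 and 347 CPM in subcutaneous ones. The value was lower in intramuscular fat in 5 of 5 pairs although the depots overlapped. Its log2 fold change of -1.14 ± 0.38 had an edgeR adjusted p of 0.0659, and of 0.00387 with the animal as a block. SLC16A7 and the adipocyte marker share both had their lowest value in intramuscular replicate 1 and higher ones in replicates 4 and 5. The subcutaneous libraries did not follow this order. There SLC16A7 was highest in replicate 4, which had the lowest adipocyte share of its depot (2.69%). Subcutaneous replicate 5, with the highest share (3.54%), had 347 CPM. Whether the adipocyte share has a part in the depot difference of SLC16A7 was not tested.

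SLC16A1, the main lactate carrier of many tissues, measured 105 ± 37.9 against 149 ± 37.5 CPM, lower in 5 of 5 pairs but with an edgeR adjusted p of 0.187. The dicarboxylate carrier SLC13A3 had a log2 fold change of -0.70 (edgeR adjusted p = 0.113, or 0.0362 with the animal as a block). SLC33A1, which brings acetyl-CoA into the endoplasmic reticulum, measured 27.7 ± 6.04 against 22.1 ± 3.07 CPM (adjusted p = 0.256).

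**Figure D3:**
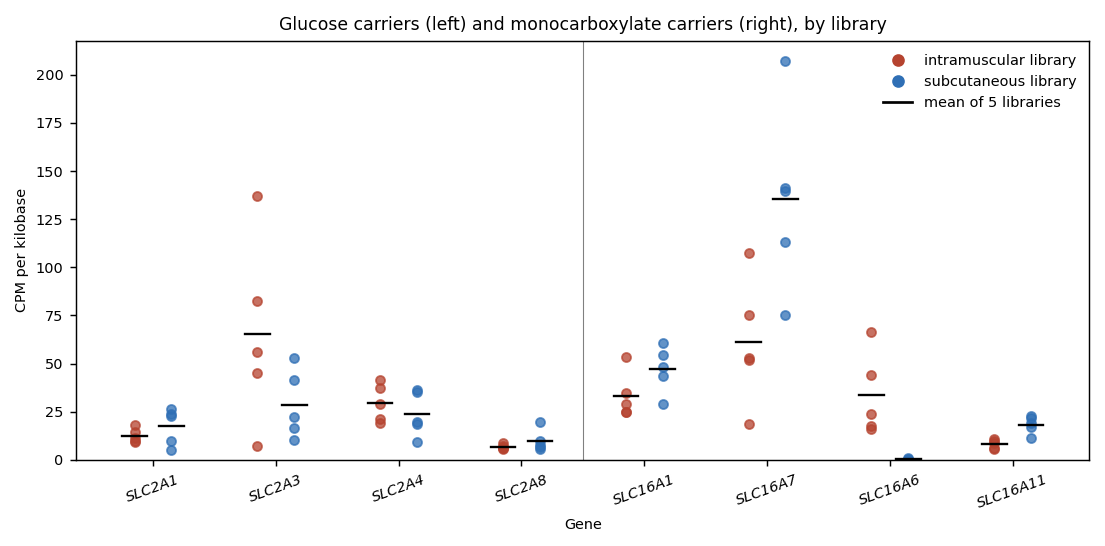
CPM per kilobase of gene (y axis) in each library for 4 glucose carriers and 4 monocarboxylate carriers (x axis), with bars at the means of 5 libraries. The depots overlap for the glucose carriers, whereas SLC16A6 lies near 0 in all subcutaneous libraries (mean 0.402) and at a mean of 33.6 in intramuscular ones.

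Amino acid and peptide carriers held a single large difference. Of 32 tested genes 3 rose and 1 fell, beside 6.75% and 5.49% of all genes tested. The class median log2 fold change was 0.20. SLC6A17, which loads neutral amino acids into synaptic vesicles in neurons (ENSBTAG00000001981, chromosome 3, 33226163 to 33281966), measured 179, 160, 137, 104 and 85.1 CPM in intramuscular replicates 1 to 5 and 7.42, 10.5, 3.91, 3.41 and 1.497 CPM in subcutaneous ones. The lowest intramuscular library lay far above the highest subcutaneous one, and the log2 fold change was 4.64 ± 0.45 (edgeR adjusted p = 6.98e-05), a 24.9-fold difference of means. In both depots libraries 1 and 2 were the highest and library 5 the lowest. The Schwann cell and nerve markers took between 0.0630% and 0.0976% of counts in intramuscular and between 0.0698% and 0.130% in subcutaneous libraries, with 7 of 14 markers higher and 1 lower. The part of nerve or muscle transcripts in the rise of SLC6A17 was not tested.

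SLC7A5, which exchanges large neutral amino acids such as leucine, measured 8.05, 8.96, 14.8, 8.27 and 15.3 CPM in intramuscular replicates 1 to 5 and 5.29, 4.25, 7.14, 2.64 and 6.87 CPM in subcutaneous ones. The depots did not overlap, though intramuscular replicate 1 lay only just above subcutaneous replicate 3, and the log2 fold change was 1.08 ± 0.32 (edgeR adjusted p = 0.0470). The means of its heavy chain SLC3A2 were nearly equal, at 91.9 ± 21.8 against 91.6 ± 25.1 CPM (log2 fold change 0.005 ± 0.21, edgeR adjusted p = 0.990). SLC3A1, the other heavy chain, known from cystine uptake in kidney, rose by 1.20 ± 0.33 on the log2 scale (9.59 ± 1.58 against 4.18 ± 2.14 CPM; edgeR adjusted p = 0.0353). PREPL, which overlaps SLC3A1 on the opposite strand, was also higher, at 12.9 ± 4.00 against 3.75 ± 1.43 CPM, and reads of this pair cannot be told apart without the strand setting. Both calls were fragile. SLC7A5 passed in 1 of 10 fits that left out a library, the one without subcutaneous replicate 5, with adjusted p up to 0.122 in the others, and SLC3A1 in 2, those without subcutaneous replicates 2 and 4, with up to 0.0829.

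SLC38A10, a carrier of the glutamine transporter family, fell by 0.81 ± 0.18 on the log2 scale (edgeR adjusted p = 0.0124). It measured 113, 147, 133, 171 and 190 CPM in intramuscular replicates 1 to 5 and 235, 288, 259, 222 and 322 CPM in subcutaneous ones, without overlap. SLC38A2, the amino acid carrier that cells raise when starved of amino acids, measured 178 ± 27.6 against 126 ± 15.6 CPM. Its depots did not overlap either, and it was not called, with an edgeR adjusted p of 0.0506 (0.0455 with DESeq2's size factors). SLC7A6, a light chain for cationic and neutral amino acids, also had no overlap (5.03 ± 0.979 against 2.11 ± 1.12 CPM), with an edgeR adjusted p of 0.0575, or 0.0499 with the animal as a block. The abundant glutamine carrier SLC1A5 (186 ± 61.7 against 208 ± 42.5 CPM), SLC7A8 (116 ± 73.0 against 121 ± 68.1 CPM) and the glutamate carrier SLC1A3 (47.5 ± 8.81 against 53.6 ± 11.1 CPM) had edgeR adjusted p between 0.565 and 0.947. The macrophage-expressed members SLC7A7 and SLC15A3 had log2 fold changes of -0.74 and -0.85 (edgeR adjusted p = 0.106 and 0.238). The macrophage and leukocyte markers, 0 higher and 4 lower of 14, took between 0.0217% and 0.0508% of counts in intramuscular and between 0.0182% and 0.0859% in subcutaneous libraries. Intramuscular replicate 2 had the highest share of them in its depot and the highest SLC15A3 level (10.1 CPM), and the part of leukocyte transcripts was not tested.

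Among acid-base and chloride carriers the rises included exchangers of protons, bicarbonate and chloride. Of 27 tested genes 5 were higher and 1 lower, beside 6.75% and 5.49% of all genes tested, while the class median log2 fold change was 0.05. In the sodium-proton exchanger family SLC9 2 of 9 genes were called, both higher. SLC9A5, an exchanger best known from brain (ENSBTAG00000039190, chromosome 18, 34875817 to 34894810), measured 103, 22.2, 34.1, 16 and 13.3 CPM in intramuscular replicates 1 to 5 and 8.84, 5.72, 6.08, 7.58 and 8.17 CPM in subcutaneous ones. Subcutaneous libraries were tightly grouped, and intramuscular replicate 1 stood far above the other 4. The log2 fold change was 2.37 ± 0.50 (edgeR adjusted p = 0.0106), and 1.56 without intramuscular replicate 1, which lowered the intramuscular mean from 37.8 to 21.4 CPM.

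SLC9A2, an exchanger of epithelia, had the highest fold change of this class (ENSBTAG00000001706, chromosome 11, 7335538 to 7424633). It had 279, 85, 182, 23 and 23 counts in intramuscular replicates 1 to 5 against 0, 6, 3, 0 and 0 counts in subcutaneous ones. The values were 26.1, 6.24, 13.3, 1.56 and 1.55 CPM in intramuscular fat and at most 0.440 CPM in subcutaneous fat, where 3 libraries had no count. The log2 fold change was 6.25 ± 1.10 (edgeR adjusted p = 0.00374), and 5.47 without intramuscular replicate 1. That library lowered the intramuscular mean from 9.75 to 5.66 CPM when left out, and subcutaneous replicate 2 the subcutaneous mean from 0.125 to 0.0466 CPM.

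Of the bicarbonate family SLC4, 2 of 6 genes were higher and 1 lower, beside 6.75% and 5.49% of all genes tested. SLC4A7, which brings sodium and bicarbonate into the cell (ENSBTAG00000018227, chromosome 22, 1752646 to 1876184), measured 62.4, 48.5, 42.9, 43.0 and 35.7 CPM in intramuscular replicates 1 to 5 and 19.4, 15.8, 9.75, 19.9 and 6.46 CPM in subcutaneous ones. Its depots were well apart, with a log2 fold change of 1.70 ± 0.29 (edgeR adjusted p = 0.00316). SLC4A3, an anion exchanger of heart and brain, rose from 8.66 ± 3.74 to 19.98 ± 4.68 CPM (edgeR adjusted p = 0.0205). Its adjusted p was 0.0505 without intramuscular replicate 1 and also without subcutaneous replicate 3.

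SLC4A11, known for ion and water transport in the corneal endothelium, had the deepest fall of all the carriers called (ENSBTAG00000027409, chromosome 13, 51975288 to 51986307). It measured 9.45, 6.97, 5.19, 8.81 and 14.8 CPM in intramuscular replicates 1 to 5 and 106, 41.3, 57.7, 32.8 and 29.1 CPM in subcutaneous ones. Every subcutaneous library lay well above the highest intramuscular one, replicate 5, and the subcutaneous libraries themselves spread widely. The fold of means was 5.89 in favour of subcutaneous fat, and the log2 fold change was -2.56 ± 0.38 (edgeR adjusted p = 0.00131). The electrogenic relative SLC4A4 measured 3.39 ± 0.508 against 4.40 ± 1.69 CPM (edgeR adjusted p = 0.512).

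Within the cation-chloride family SLC12, the inward carrier SLC12A2 rose and no other of the 6 genes was called, beside 12.2% of all genes tested. SLC12A2 measured 9.08, 6.97, 9.94, 6.03 and 4.66 CPM in intramuscular replicates 1 to 5 and between 2.76 and 3.29 CPM in the subcutaneous libraries. The lowest intramuscular library lay above all subcutaneous ones, and the log2 fold change was 1.29 ± 0.29 (edgeR adjusted p = 0.0142, 0.0525 without intramuscular replicate 3). The potassium-chloride outward carrier SLC12A7, picked after its values were seen, had 241 ± 65.6 against 367 ± 68.3 CPM (edgeR adjusted p = 0.0735).

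Sodium-calcium exchangers of the SLC8 family, most of which push calcium out of excitable cells, had the highest family median (1.79 over 4 genes). The log2 fold change was positive for 3 of them and negative for 1 (-0.39), and 1 of the 4 was called, beside 12.2% of all genes tested. SLC8A2 measured 11.5, 3.52, 8.04, 8.40 and 4.87 CPM in intramuscular replicates 1 to 5 and 2.19, 1.39, 0, 0.294 and 1.36 CPM in subcutaneous ones. The depots did not overlap at these low levels, and the log2 fold change was 2.79 ± 0.73 (edgeR adjusted p = 0.0274). The call was lost without intramuscular replicate 1 (0.0629) or 3 (0.0636). SLC8A1, the exchanger of heart, had 5.83 ± 1.10 against 2.39 ± 1.60 CPM (adjusted p = 0.103), and the potassium-dependent exchanger SLC24A3 12.5 ± 3.66 against 8.82 ± 5.54 CPM (adjusted p = 0.467).

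The rises differed in how they stood to the muscle share of the libraries, which in intramuscular replicates 1 to 5 was 0.355, 0.0930, 0.184, 0.0520 and 0.0619%. SLC9A2 and SLC9A5 were highest in replicate 1, next in replicate 3, then in replicate 2, and lowest in replicates 4 and 5, as the muscle share was. SLC16A6, SLC6A17, SLC8A2, SLC35F1, SLC4A3 and SLC4A7 were also highest in replicate 1. SLC12A2 was high in replicates 1 and 3, and SLC7A5 in replicates 3 and 5. SLC22A3, SLC3A1 and SLC39A14 were highest in replicate 4, the library with the smallest muscle share, and SLC20A1 was lowest in replicate 1. With 5 libraries no correlation is given, and the part of muscle transcripts in these differences was not tested. Without intramuscular replicates 1 and 3, SLC16A6 (log2 fold change 6.15), SLC6A17 (4.45), SLC4A7 (1.57), SLC20A1 (1.28), SLC9A5 (1.24) and SLC4A11 (-2.38) kept their calls and the other 18 did not pass with 3 intramuscular libraries. Among those 18, the log2 fold change was about as large as with all libraries for SLC35F1 (2.37), SLC22A3 (2.05), SLC3A1 (1.24), SLC7A5 (1.05), SLC39A14 (0.56), SLC39A7 (-0.48) and SLC22A18 (-1.82). It was smaller in size for the rises SLC9A2 (4.60), SLC8A2 (2.42), SLC4A3 (1.02) and SLC12A2 (0.97). The same held for the falls SLC43A3 (-1.56), SLC16A11 (-1.11), SLC39A11 (-0.84), SLC52A2 (-0.69), SLC38A10 (-0.65), SLC19A1 (-0.56) and SLC39A1 (-0.37). That fit of 8 libraries called 5 carriers higher and 1 lower, beside 2.43% and 0.531% (together 2.96%) of all genes tested.

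**Figure D4:**
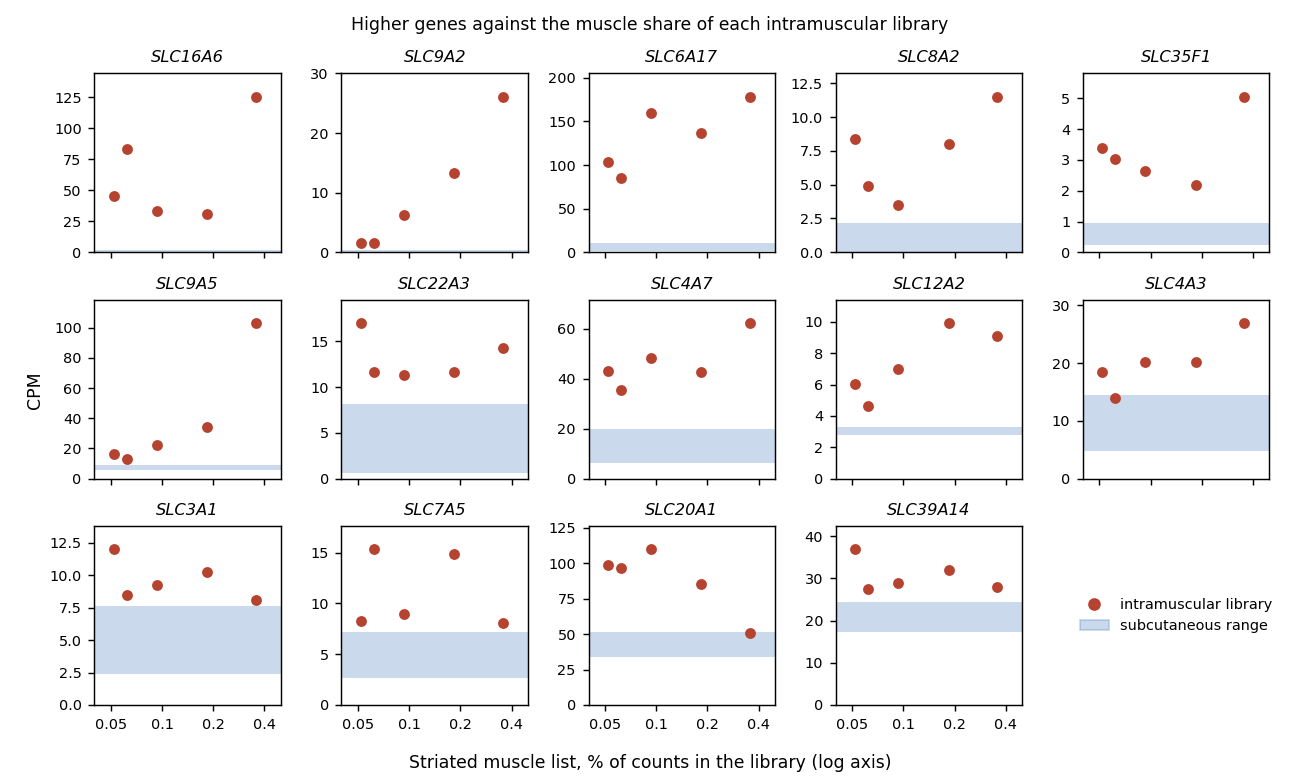
CPM (y axis, from 0) of the 14 higher genes in each of the 5 intramuscular libraries against the share of counts in 14 striated muscle markers (x axis, log scale); the blue band is the range over subcutaneous libraries. SLC9A2 and SLC9A5 climb with the share toward replicate 1 (0.355%), while SLC20A1 is lowest there.

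Among metal carriers the zinc importers of the SLC39 family held all 4 calls, 3 of them lower. Of 28 tested genes of the metal class 1 was higher and 3 lower, beside 6.75% and 5.49% of all genes tested. Of 12 tested SLC39 genes 8 had a negative log2 fold change, with a median of -0.37. The summed level of the 13 SLC39 genes lay between 351 and 425 CPM in intramuscular and between 481 and 543 CPM in subcutaneous libraries, without overlap. Such a gap was not particular to SLC39. The sums of SLC35 (537 to 603 against 631 to 715 CPM) and SLC38 (317 to 410 against 419 to 498 CPM) were also lower without overlap. That of SLC6 was higher without overlap (164 to 369 against 72.0 to 118 CPM). All 6 genes of the zinc exporter family SLC30 had a positive log2 fold change, with a median of 0.23, and none was called. SLC30A1, the exporter of the plasma membrane, had 3.48 ± 0.6 against 1.87 ± 0.798 CPM without overlap (edgeR adjusted p = 0.153). Whether the importer and exporter families differ from each other was not tested.

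SLC39A11, a zinc carrier of the Golgi, had the largest fall among the called genes of the family (ENSBTAG00000018837, chromosome 19, 58209287 to 58503188). It measured 9.36, 16.2, 18.3, 22.1 and 18.7 CPM in intramuscular replicates 1 to 5 and 34.6, 24.9, 47.5, 35.0 and 28.1 CPM in subcutaneous ones. The depots were apart, with a log2 fold change of -1.0 ± 0.24 (edgeR adjusted p = 0.0199, 0.0508 without subcutaneous replicate 3). SLC39A7, which releases zinc from the endoplasmic reticulum, and SLC39A1, of the plasma membrane, fell in intramuscular fat, from 116 ± 17.5 to 81.9 ± 9.61 CPM and from 106 ± 11.7 to 73.8 ± 13.1 CPM (edgeR adjusted p = 0.0458 and 0.0479). SLC39A7 overlaps RXRB on the opposite strand, which measured 61.1 ± 7.56 against 66.3 ± 16.9 CPM. SLC39A14, which also brings iron and manganese into cells, rose from 21.1 ± 2.91 to 30.6 ± 3.92 CPM, without overlap (edgeR adjusted p = 0.0486, 0.0613 with the animal as a block). These 3 calls lay near the threshold. SLC39A14 passed in 0 of 10 fits that left out a library (adjusted p up to 0.115), SLC39A7 in 1, that without subcutaneous replicate 1 (otherwise up to 0.104), and SLC39A1 in 2, those without intramuscular replicate 2 and subcutaneous replicate 4 (otherwise up to 0.115). With DESeq2's size factors the edgeR adjusted p of SLC39A7 and SLC39A1 were 0.05095 and 0.05003, both just above 0.05 and so not called.

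Apart from SLC39A14, no iron, manganese or copper carrier named here passed the test. SLC40A1, the iron exporter, had means of 113 ± 39.4 and 134 ± 75.1 CPM (edgeR adjusted p = 0.677). In both depots it was highest in replicates 2 and 3 and lowest in replicates 4 and 5. SLC11A2, the divalent metal importer, had 17.9 ± 4.39 against 10.8 ± 1.86 CPM (adjusted p = 0.0532), and 0.0187 by DESeq2. The copper importer SLC31A1 had 56.0 ± 15.6 against 81.3 ± 20.3 CPM (adjusted p = 0.135), lower in 5 of 5 pairs. SLC39A8, a zinc and manganese importer, had 10.6 ± 2.33 against 17.73 ± 4.64 CPM (adjusted p = 0.0636).

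SLC20A1, a sodium-phosphate importer of most cells, rose (ENSBTAG00000007895, chromosome 11, 46352478 to 46366279). It was the only call among 3 tested phosphate carriers, beside 12.2% of all genes tested. SLC20A1 measured 50.9, 110, 85.4, 98.6 and 96.6 CPM in intramuscular replicates 1 to 5 and 43.4, 37.4, 33.7, 51.7 and 43.0 CPM in subcutaneous ones. Replicate 1 was the low intramuscular library and lay just under subcutaneous replicate 4, while the other 4 were well above all subcutaneous libraries. The log2 fold change was 1.08 ± 0.20 (edgeR adjusted p = 0.00613). Its paralog SLC20A2 measured 96.3 ± 9.95 against 82.0 ± 18.8 CPM (adjusted p = 0.369).

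Among nucleoside and nucleobase carriers 0 of 5 tested genes were higher and 1 lower, beside 6.75% and 5.49% of all genes tested. SLC29A1, the equilibrative nucleoside and adenosine carrier, had the highest level per kilobase of all 200 genes in both depots, at 220 ± 38.3 CPM per kilobase in intramuscular and 248 ± 58.9 in subcutaneous fat. Its log2 fold change was -0.18 ± 0.20 (edgeR adjusted p = 0.578). SLC43A3, a carrier of adenine and other nucleobases, was the called gene of this class (ENSBTAG00000010060, chromosome 15, 80673388 to 80692495). It measured 1.12, 1.54, 2.12, 2.98 and 4.19 CPM in intramuscular replicates 1 to 5 and 11.04, 7.40, 12.4, 3.23 and 8.91 CPM in subcutaneous ones. Subcutaneous replicate 4 lay within the intramuscular range, and the log2 fold change was -1.83 ± 0.43 (edgeR adjusted p = 0.0180). The endothelial markers, 0 higher and 4 lower of 12, took between 0.217% and 0.279% of counts in intramuscular and between 0.246% and 0.452% in subcutaneous libraries. Subcutaneous replicate 4 was the lowest of its depot for this share and for SLC43A3. The highest libraries differed, with the share highest in intramuscular replicate 2 and subcutaneous replicate 1, and SLC43A3 in intramuscular replicate 5 and subcutaneous replicate 3. The part of endothelial transcripts in this fall was not tested.

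Among organic ion carriers 1 of 15 tested genes was higher and 1 lower, beside 6.75% and 5.49% of all genes tested. SLC22A3, which clears noradrenaline and other monoamines (ENSBTAG00000039080, chromosome 9, 96475870 to 96569900), measured 14.2, 11.3, 11.6, 17.01 and 11.7 CPM in intramuscular replicates 1 to 5 and 8.13, 2.71, 3.35, 1.41 and 0.612 CPM in subcutaneous ones. Intramuscular libraries lay close together, and subcutaneous replicate 1 stood above the other 4 of its depot. The log2 fold change was 2.02 ± 0.51 (edgeR adjusted p = 0.0248), with adjusted p of 0.0505 and 0.0529 without subcutaneous replicates 2 and 3. Without subcutaneous replicate 1 the subcutaneous mean fell from 3.24 to 2.02 CPM.

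SLC22A18, an imprinted gene of this family in mammals (ENSBTAG00000012742, chromosome 29, 48692593 to 48712661), measured 8.24, 5.36, 9.21, 6.71 and 7.84 CPM in intramuscular replicates 1 to 5 and 15.5, 8.94, 37.7, 24.9 and 29.5 CPM in subcutaneous ones. Only subcutaneous replicate 2 reached the intramuscular range, and the log2 fold change was -1.64 ± 0.34 (edgeR adjusted p = 0.0095). The carnitine importer SLC22A5 had 11.5 ± 6.79 against 7.11 ± 1.71 CPM (adjusted p = 0.2002), and the lysosomal sialic acid carrier SLC17A5 21.7 ± 5.15 against 32.0 ± 11.7 CPM (adjusted p = 0.187).

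Of 13 tested vitamin, folate and choline carriers 0 were higher and 2 lower, beside 6.75% and 5.49% of all genes tested. SLC52A2, a riboflavin carrier, fell by 0.77 ± 0.18 on the log2 scale. It measured 42.6, 41.9, 43.0, 49.3 and 58.1 CPM in intramuscular replicates 1 to 5 and 65.2, 65.1, 87.9, 72.4 and 109 CPM in subcutaneous ones, with no overlap (edgeR adjusted p = 0.0167, 0.0514 without intramuscular replicate 3). SLC19A1, the reduced folate carrier, fell from 22.5 ± 4.05 to 12.6 ± 4.07 CPM, also without overlap (edgeR adjusted p = 0.0422). It passed in 3 of 10 fits that left out a library, those without intramuscular replicates 2 and 5 and subcutaneous replicate 1, with adjusted p up to 0.101 in the others. Its thiamine-carrying relative SLC19A2 had the opposite sign, at 8.68 ± 1.47 against 5.10 ± 3.21 CPM (adjusted p = 0.214). The choline carrier SLC44A1 had 16.4 ± 2.03 against 11.1 ± 4.29 CPM (adjusted p = 0.158).

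The SLC35 family, most of whose known members bring nucleotide sugars into the Golgi and endoplasmic reticulum, held 1 call. Of 22 tested genes 1 was higher and 0 lower, beside 6.75% and 5.49% of all genes tested. The log2 fold changes of the family ran from -0.63 to 2.47, with a median of -0.09. SLC35F1, whose substrate is not established (ENSBTAG00000033657, chromosome 9, 32590637 to 32757496), measured 5.05, 2.64, 2.19, 3.39 and 3.04 CPM in intramuscular replicates 1 to 5 and 0.710, 0.953, 0.683, 0.235 and 0.340 CPM in subcutaneous ones. The depots were apart at low levels, with a log2 fold change of 2.47 ± 0.49 (edgeR adjusted p = 0.00792).

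In the remaining classes no gene passed the test, out of 7 neurotransmitter carriers, 2 carriers of osmolytes or creatine and the 4 genes that are not carriers. Over all genes tested 12.2% passed. The creatine importer SLC6A8 measured 137, 42.2, 58.5, 26.0 and 48.3 CPM in intramuscular replicates 1 to 5 and between 19.9 and 43.5 CPM in subcutaneous ones. Replicate 1, richest in muscle counts, was the high library, and the log2 fold change was 0.95 ± 0.39 (edgeR adjusted p = 0.123). The taurine importer SLC6A6 measured 10.2 ± 3.22 against 14.8 ± 5.34 CPM (adjusted p = 0.246). The 6 genes with too few counts to test were SLC7A9, SLC7A10, SLC14A1, SLC16A12, SLC39A4 and SLC51B. SLC7A10, a carrier known as a marker of white adipocytes, had 79, 13, 5, 4 and 21 counts in intramuscular replicates 1 to 5 against 0, 1, 25, 0 and 0 counts in subcutaneous ones. SLC51B, a subunit of a steroid and bile acid exporter, had 6 to 49 counts in intramuscular and 0 to 5 in subcutaneous libraries, without overlap. RASL12, which overlaps it on the opposite strand, measured 129 ± 18.5 against 34.0 ± 9.30 CPM, so reads of the pair may be shared.

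Partner proteins of these carriers were described from a separate list. Of 29 tested genes for carrier chaperones and the traffic of glucose carriers 4 were higher and 3 lower, with a median log2 fold change of 0.07, beside 6.75% higher and 5.49% lower of all genes tested. TBC1D1 and RAB10, a GTPase-activating protein and a small GTPase of glucose carrier vesicles, rose from 58.2 ± 3.29 to 86.8 ± 6.79 CPM and from 86.8 ± 19.6 to 135 ± 22.1 CPM (edgeR adjusted p = 0.0118 and 0.0402). ASPSCR1, a tether of the same vesicles, fell from 123 ± 32.1 to 73.2 ± 7.82 CPM (adjusted p = 0.0188). The vesicle coat protein gene CLTC and the ubiquitin ligase gene NEDD4L were also higher, and CD320 and ARL6IP5 lower. BSG, the chaperone that brings monocarboxylate carriers to the cell surface, measured 2374 ± 736 against 4240 ± 1223 CPM (adjusted p = 0.0610).

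Of 48 tested carriers whose symbols lie outside the SLC series 3 were higher (SLCO2A1, SV2A and UNC93A) and 7 lower (MFSD4A, MFSD10, MFSD12, MFSD13A, SPNS2, SPNS3 and UNC93B1), beside 6.75% and 5.49% of all genes tested, with a median log2 fold change of -0.26. SPNS2, which exports sphingosine 1-phosphate, fell from 35.1 ± 11.6 to 14.3 ± 1.90 CPM (edgeR adjusted p = 0.00566). SLCO2A1, a prostaglandin importer, rose from 9.24 ± 3.36 to 20.9 ± 4.67 CPM (adjusted p = 0.0205).

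Calls near the threshold depended on single libraries. Of the 24 calls 12 held in all 10 fits that left out 1 library, 7 of them higher and 5 lower. These were SLC16A6, SLC9A2, SLC6A17, SLC35F1, SLC9A5, SLC4A7 and SLC20A1 among the rises and SLC4A11, SLC43A3, SLC22A18, SLC16A11 and SLC38A10 among the falls. A block for the animal gave 15 rises and 14 falls, beside 8.09% and 6.96% of all genes tested, and 23 of the 24 calls were shared. DESeq2 gave 20 rises and 18 falls, beside 19.8% of all genes in either direction, and shared all 24. In the authors' deposited table, 20 of these carriers have a positive and 18 a negative fold change at their threshold of 0.05, beside 10.8% and 9.24% of all its genes, and the 24 calls made here have equal signs there.

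**Figure D5:**
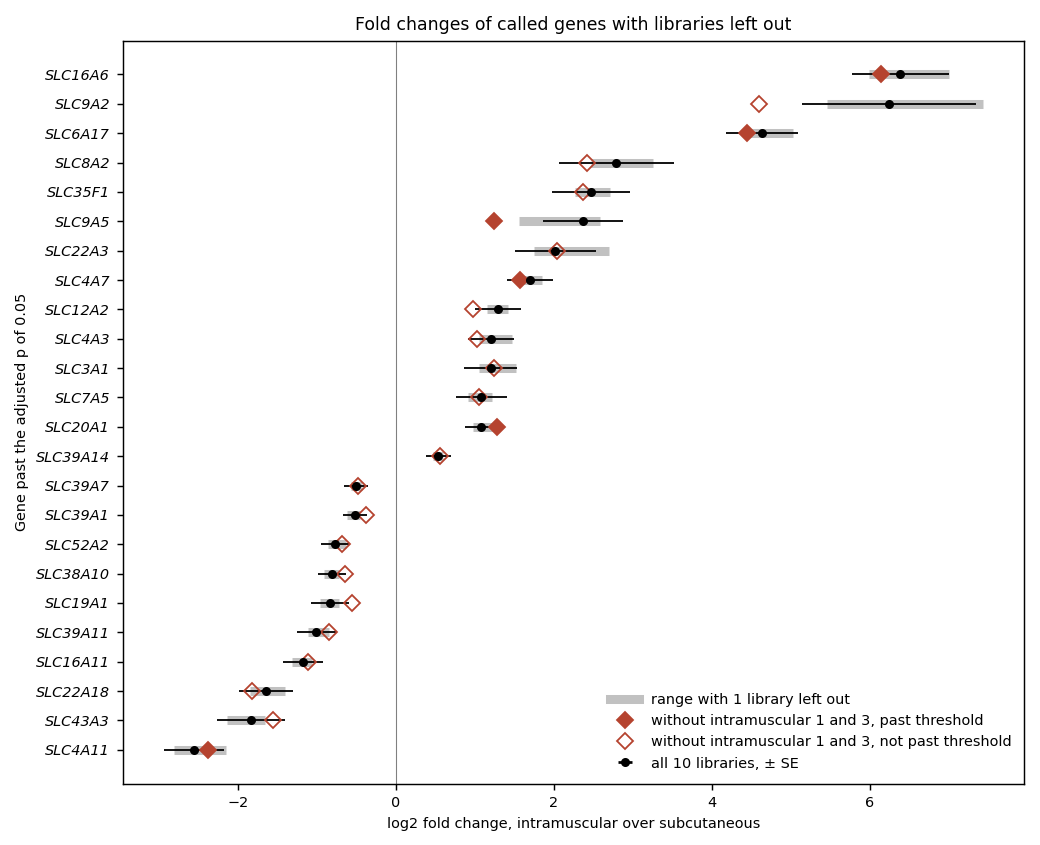
Log2 fold change (x axis) of the 24 called genes (y axis) from all 10 libraries with its SE, the range over the 10 fits that left out 1 library (grey) and the value without intramuscular replicates 1 and 3 (diamonds, filled where past the threshold). All values kept their sign, and SLC9A5 and SLC9A2 moved most toward 0 without replicates 1 and 3 (to 1.24 and 4.60).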

How the data were processed

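The authors deposited raw counts for 12674 genes in each library, in 1 table. The submitters' processing notes name featureCounts 2.0.2 and STAR 2.7.11a, as well as Trimmomatic 0.39 and DESeq2 1.42.0. The table also holds the authors' mean raw count per depot (a score in no standard unit), a deposited base mean (a size-factor scaled signal), and deposited log2 fold changes, p-values and adjusted p-values. Genome build and strand setting: not given in the sources used here. Coordinates are those of the deposited table. Gene names of 197 of the 200 carriers match symbols of RefSeq's ARS-UCD2.0 annotation.

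Counts of all genes were tested in R 4.3.3 with edgeR 4.0.16 by a two-sided quasi-likelihood test without a block, after TMM scaling and a filterByExpr step by depot that removed 153 genes, and with Benjamini-Hochberg adjustment over 12521 genes and a threshold of 0.05. The SE is the absolute log2 fold change divided by the square root of F. CPM use TMM-scaled library sizes. Alternatives were DESeq2's size factors (RLE), no filter, DESeq2 1.42.0, limma 3.58.1 (voom), the animal as a block, each library left out, and intramuscular replicates 1 and 3 left out. The test was checked on simulated counts.

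Replicate numbers were taken as pairs, since the design text says both depots came from the same 5 heifers. As a check, the 2 libraries of a number deviated together from the depot means (correlations of 0.102 to 0.237), and each of 10 libraries had its highest correlation with its partner.

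The members, substrate classes and lists were chosen with earlier results of these data known. Every called carrier is named, with up to 34 others from a fixed list of well-known carriers that were not called; SLC7A10, too low to test, and SLC12A7 are added. Some results are not reported here. Gene lengths are those of the deposited table. Depth limits precision for genes of few counts, and SDs cover 5 animals.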

Additional observations from a re-analysis of the deposited data

Results flagged for a closer look

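Among 116 groups of 5 libraries (58 named carriers in each depot), 5 had a library far from the other 4, by a gap to the nearest of more than 0.71 of the whole range. Chance flags about 1 group in 20. In intramuscular replicate 1, the library with the most muscle counts, SLC9A5 stood at 103 CPM with the next at 34.1 CPM, and SLC37A4 at 82.9 CPM with the next at 40.6 CPM. In intramuscular replicate 2, SLC6A6 stood at 15.9 CPM with the next at 9.56 CPM, and SLC15A3 at 10.1 CPM with the next at 4.73 CPM. In subcutaneous replicate 5, SLC2A8 stood at 39.4 CPM with the next at 19.3 CPM.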

How the results depend on the processing

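Of the 24 calls, 22 held with DESeq2's size factors and 24 without the filter, by DESeq2 and by limma voom. DESeq2 called 18 carriers lower in place of 10, and 1325 genes higher and 1157 lower among all genes in place of 845 and 688. With the animal as a block, edgeR called 15 carriers higher and 14 lower, and 1013 and 871 of all genes; of the named carriers this block ended the call of SLC39A14 and added SLC16A7, SLC13A3 and SLC7A6. Leaving out each library in turn gave 9 to 14 carriers higher and 6 to 11 lower, and 494 to 1008 genes higher and 263 to 887 lower over all genes. Without intramuscular replicates 1 and 3, which leaves 3 intramuscular libraries, 5 carriers were higher and 1 lower, and 306 and 67 of all genes; the cause of the other changes was not tested. The median log2 fold change of the carriers moved by less than the SD of 0.12 over pairs in every alternative run. Over 58 named carriers and all settings, 809 results kept direction and side of the threshold, 81 lost a call, 21 gained one and 17 changed sign, none of the last being called. Leaving out each library in turn, the log2 fold change ran from -0.257 to 0.039 for SLC1A5, from -0.09 to 0.391 for SLC37A4, from -0.14 to 0.13 for SLC3A2, from -0.427 to 0.013 for SLC40A1 and from -0.342 to 0.194 for SLC7A8. Without both intramuscular replicates 1 and 3 it was 0.008 for SLC1A5, -0.171 for SLC37A4, -0.214 for SLC3A2 and 0.217 for SLC7A8. Genes of few counts, such as SLC9A2 in subcutaneous fat, are limited by depth.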
